A study of Homo sapiens with 3 samples.

Results

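The genes described here are the core kinases of the Hippo pathway and their adaptor proteins. They are LATS1, LATS2, STK3, STK4, TAOK1, SAV1, MOB1A, MOB1B, NF2 and STRN, chosen by name and role, and all 10 were found among the 50868 genes of the table. RNA was sequenced from HGC-27, an established human line from an undifferentiated gastric carcinoma, at passage 6. Each culture was transfected for 48 h with 1 of 3 siRNAs: a control siRNA (n.c.), an siRNA against IRF3 (siIRF3) or an siRNA against YAP (siYAP). IRF3 switches on interferon genes after viral infection, and YAP is the coactivator that the Hippo pathway restrains. Each group is 1 library, no difference between groups can be checked against replicates, and no p-value is given. Every group passed through transfection, and no untransfected cells were used here.

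The Hippo pathway is a kinase cascade that limits organ growth and cell proliferation. STK3 and STK4, with their scaffold SAV1, phosphorylate LATS1 and LATS2 and the LATS partners MOB1A and MOB1B. The LATS kinases in turn phosphorylate YAP and its relative TAZ, which are then held in the cytoplasm or degraded. TAOK1 acts above STK3 and STK4, NF2 brings LATS to the cell membrane, and STRN is a scaffold that brings a phosphatase to the STK3 and STK4 kinases. RNA levels do not show whether these kinases are active.

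Gene counts summed to 13949401 in the control library, 14941556 in the IRF3 siRNA library and 14385959 in the YAP siRNA library. YAP1, the gene for YAP, stood at 861 counts in the control library, 561 in the IRF3 siRNA library and 337 in the YAP siRNA library, and its YAP siRNA level was 0.380 of control (counting interval 0.334 to 0.431). IRF3 stood at 681, 597 and 764 counts in the same order, and its IRF3 siRNA level was 0.818 of control (0.732 to 0.915). The YAP siRNA library was thus the lowest in YAP1 and the IRF3 siRNA library the lowest in IRF3, by a smaller margin. IRF3 RNA was only weakly lower with its own siRNA. In that comparison 38.1% of all genes with at least 50 counts had intervals entirely below 1. YAP1 was also at 0.608 of control (0.546 to 0.677) in the IRF3 siRNA library, further from control than IRF3 itself. Of 8 mesenchymal markers, 7 reached 1 FPKM in every library, with summed levels of 1364, 1184 and 1234 FPKM. None of 6 epithelial markers did so (sums of 0.807 to 1.05 FPKM), and 4 of 6 gastric markers were listed at 0 in all 3 libraries. Of the erythroid markers 2 of 3 (HBB and HBA1) reached 1 FPKM in every library, and none of 5 leukocyte or 4 endothelial markers did.

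The DNA just before the start of 4 members is shown because these 4 genes had the largest differences from control. The sequences come from RefSeq (GRCh38.p14) and end no later than the first base of the gene as deposited, with bases of a motif match in capitals. STRN lies at chr2:36966537-36966786 (minus strand), STK4 at chr20:44966262-44966473 (plus), TAOK1 at chr17:29390113-29390362 (plus) and LATS1 at chr6:149718257-149718351 (minus).
STRN: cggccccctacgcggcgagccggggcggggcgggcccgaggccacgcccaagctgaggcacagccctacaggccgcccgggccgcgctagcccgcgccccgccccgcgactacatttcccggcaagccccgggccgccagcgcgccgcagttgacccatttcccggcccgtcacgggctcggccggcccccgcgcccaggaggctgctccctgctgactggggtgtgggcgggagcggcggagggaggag
STK4: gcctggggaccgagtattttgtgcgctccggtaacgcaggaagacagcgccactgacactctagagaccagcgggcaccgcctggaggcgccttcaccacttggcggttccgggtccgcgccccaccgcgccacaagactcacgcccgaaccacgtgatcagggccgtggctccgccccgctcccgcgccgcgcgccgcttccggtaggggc
TAOK1: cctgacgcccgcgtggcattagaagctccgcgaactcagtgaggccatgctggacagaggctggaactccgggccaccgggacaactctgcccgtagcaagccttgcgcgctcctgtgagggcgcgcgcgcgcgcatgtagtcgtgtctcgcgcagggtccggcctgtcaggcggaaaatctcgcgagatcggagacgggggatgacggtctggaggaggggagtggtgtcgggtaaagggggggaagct
LATS1: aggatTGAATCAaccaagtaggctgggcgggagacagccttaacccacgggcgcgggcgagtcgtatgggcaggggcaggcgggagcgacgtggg

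These stretches are rich in G and C, with 79.6% GC for STRN, 70.8% for STK4, 66.4% for TAOK1 and 66.3% for LATS1. Promoter windows of 300 bases (250 before and 50 after the RefSeq start) were given for 9 of the 10 members, with 13 windows in all. Their GC content ran from 62.0% to 79.3%, apart from 1 further start of LATS1 at 30.3%, against a median of 58.7% over all 35116 windows. 3 motifs were searched on both strands. GGAATG, the core bound by the TEAD partners of YAP, occurred in 1 member, LATS2, and in 14.0% of all windows. A pair of GAAA runs separated by any 2 bases, a core of sites bound by IRF proteins, occurred in none of the members and in 3.57% of all windows. TGANTCA, the AP-1 site, occurred in 2 members and in 7.71% of all windows, and the LATS1 match is in capitals above. The TEAD core of LATS2 is shown in 30 bases, at chr13:21061560-21061589 (minus strand), with the motif in capitals.
LATS2: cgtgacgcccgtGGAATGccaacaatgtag

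The 10 genes were expressed at low to middling levels, and MOB1A stood highest. FPKM, the count scaled to gene length and library total, was used to compare genes with each other. In the control library the order was MOB1A (11.7 FPKM), SAV1 (6.36), NF2 (2.98), LATS2 (2.77), STK4 (2.31), STRN (2.10), MOB1B (1.10), TAOK1 (1.07), LATS1 (0.837) and STK3 (0.584). Neighbours in this order were not separated beyond counting error in 5 of 9 cases: NF2 and LATS2, LATS2 and STK4, STK4 and STRN, MOB1B and TAOK1, and TAOK1 and LATS1. In the YAP siRNA library 6 of 9 neighbouring pairs overlapped and in the IRF3 siRNA library 5 of 9. The adaptors MOB1A and SAV1 were first and second in all 3 libraries, while LATS1 was the ninth of 10 in FPKM in the control library and the last in both others. The gene lengths behind the authors' FPKM are longer than the exon lengths of GENCODE 29 for all 10 members, and per kilobase of the latter STK4 moves up to place 4 and LATS1 to place 7 in the control library. In both siRNA libraries LATS1 is then ninth and TAOK1 last, and the counting intervals of these 2 genes overlap in all 3 libraries. A mean of at least 1 FPKM over the libraries was reached by 6 members (MOB1A, SAV1, NF2, LATS2, STK4 and STRN). STRN passed this filter only through its control level, and STK4 averaged 0.99 FPKM in the siRNA libraries. LATS1, STK3, MOB1B and TAOK1 did not pass it, although all 10 had a mean of at least 50 counts.

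**Figure D1:**
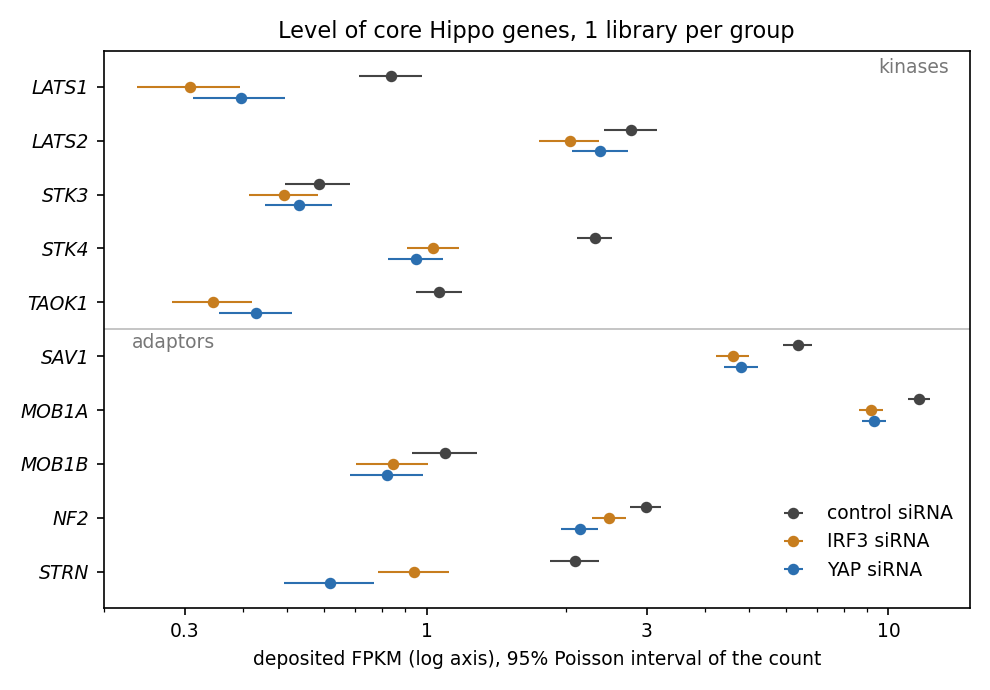
Deposited FPKM (log axis) of each core Hippo gene in the control, IRF3 siRNA and YAP siRNA libraries, with 95% Poisson intervals of the count as bars, kinases above and adaptors below. The control point is the rightmost of the 3 for every gene, and MOB1A stands highest with 11.7 FPKM in the control library.

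All 10 genes were at their highest in the control library. In RNA from a whole culture, fewer cells with a transcript and less of it per cell cannot be told apart. The ratio of counts, each scaled to its library total, was below 1 for 10 of 10 members with either siRNA. It ran from 0.295 (STRN) to 0.906 (STK3) with YAP siRNA and from 0.324 (TAOK1) to 0.842 (STK3) with IRF3 siRNA. Of all genes with at least 50 counts, 57.8% had a ratio below 1 with YAP siRNA and 59.0% with IRF3 siRNA. Among such genes with exons over 5000 bases and a GC content under 45%, which include 8 of the members, these shares were 84.3% and 87.6%. The same 4 genes, LATS1, STK4, TAOK1 and STRN, were at least 2-fold lower with either siRNA. Among all genes with a mean of at least 50 counts, 4.48% were at least 2-fold lower with YAP siRNA, 5.16% with IRF3 siRNA and 2.84% with both. Both comparisons use the same control library, so a deviation of that library and an effect shared by the siRNAs cannot be told apart. Of the 6 members with a mean of at least 1 FPKM, 2 (STK4 and STRN) were 2-fold lower with either siRNA, against 2.72% of all such genes with YAP siRNA and 3.07% with IRF3 siRNA. Nothing is read from that count, because STRN passes this filter only through its control level and STK4 averages 0.99 FPKM in the siRNA libraries. All 10 members also average more than 50 counts in the siRNA libraries alone, from 70.5 (LATS1) to 1096 (MOB1A). The median ratio of the 10 members was 0.735 with YAP siRNA and 0.730 with IRF3 siRNA, and that of all genes with at least 50 counts was 0.951 and 0.940.

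Judged by 95% intervals of the ratio, 8 of 10 members lay below control with YAP siRNA and 9 of 10 with IRF3 siRNA. These intervals cover counting error only, since PCR copies are not independent molecules and no second culture shows the spread between cultures. Intervals entirely below 1 were held by 35.6% of all genes with at least 50 counts in the YAP siRNA comparison and by 38.1% in the IRF3 siRNA comparison.

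**Figure D2:**
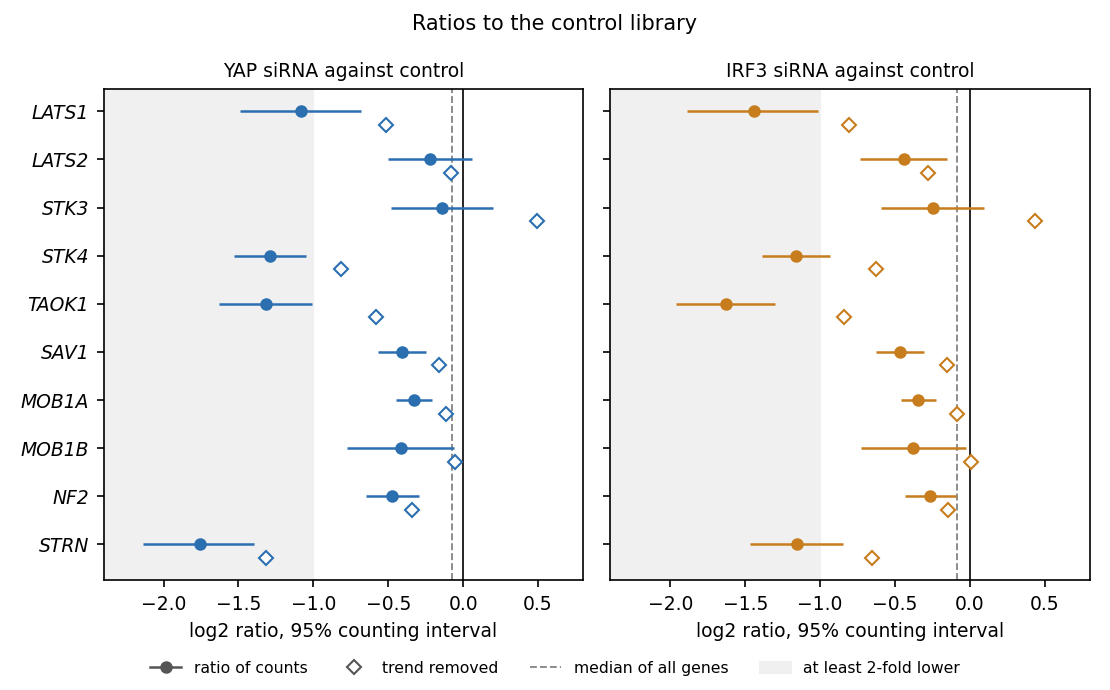
Log2 ratio to control of each core Hippo gene in the YAP siRNA (left) and IRF3 siRNA (right) libraries. Filled points are ratios of counts with 95% counting intervals, open diamonds have the trend with GC content, exon length and level removed, dashed lines are the median of all genes with at least 50 counts, and the grey area holds genes at least 2-fold lower. LATS1, STK4, TAOK1 and STRN lie in the grey area in both panels, and only the STRN diamond on the left does.

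LATS1 and LATS2 are the kinases that phosphorylate YAP directly. LATS1 (ENSG00000131023, chromosome 6, 149658153 to 149718256, hg38) had 160 counts in the control library, 63 with IRF3 siRNA and 78 with YAP siRNA. Both siRNA libraries lay well under control and close to each other. The YAP siRNA ratio was 0.473 (0.356 to 0.623), or -1.08 on the log2 scale. The IRF3 siRNA ratio was 0.368 (0.270 to 0.495), or -1.44. With YAP siRNA the gene was just short of 2-fold under other scalings of the libraries, at -0.99 on the log2 scale with TMM factors and barely above -1 with DESeq2 size factors.

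LATS2 (ENSG00000150457, chromosome 13, 20973032 to 21061547) had 227, 179 and 201 counts in the control, IRF3 siRNA and YAP siRNA libraries. It differed less from control than LATS1 with either siRNA. Its ratio was 0.859 with YAP siRNA, with an interval that spans 1 (0.707 to 1.04), and 0.736 with IRF3 siRNA (0.602 to 0.899). LATS2 is also a direct target gene of YAP in other cells, and its promoter window is the one that held the TEAD core. The match lies 9 bases after the RefSeq start, and 14.0% of all windows hold this core. Whether YAP acts on LATS2 in these cells was not tested.

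The balance of the pair therefore moved towards LATS2. LATS2 exceeded LATS1 by 3.31 to 1 in FPKM in the control library, 6.63 to 1 with IRF3 siRNA and 6.01 to 1 with YAP siRNA. The change of this balance does not depend on library scaling or on the length used for FPKM. It was 1.82-fold with YAP siRNA (interval 1.29 to 2.57) and 2.0-fold with IRF3 siRNA (1.39 to 2.90). With the trend in GC content, exon length and level described further on removed, it was 1.35-fold and 1.44-fold. Between the siRNA libraries it was 1.10-fold, with an interval of 0.734 to 1.66 that spans 1. The summed FPKM of the pair was 76.9% of control with YAP siRNA and 65.1% with IRF3 siRNA.

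STK3 and STK4 are the kinases that activate LATS. STK4 (ENSG00000101109, chromosome 20, 44966474 to 45079959) had 497 counts in the control library, 238 with IRF3 siRNA and 210 with YAP siRNA. The control library was high and the siRNA libraries were alike. Its ratio was 0.410 (0.347 to 0.482) with YAP siRNA and 0.447 (0.381 to 0.523) with IRF3 siRNA. STK4 was at least 2-fold lower with either siRNA under TMM, DESeq2 and median scaling as well. It was short of 2-fold with FPKM plus 1 (-0.77 on the log2 scale with YAP siRNA and -0.70 with IRF3 siRNA) and with the trend removed.

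STK3 (ENSG00000104375, chromosome 8) had 153, 138 and 143 counts in the control, IRF3 siRNA and YAP siRNA libraries, nearly level throughout. Its ratio was 0.906 (0.716 to 1.15) with YAP siRNA and 0.842 (0.664 to 1.07) with IRF3 siRNA, and both intervals span 1. STK3 was the member nearest to its control level in both comparisons.

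The balance of this pair moved away from STK4. STK4 exceeded STK3 by 3.96 to 1 in FPKM in the control library, 2.10 to 1 with IRF3 siRNA and 1.79 to 1 with YAP siRNA. The change was 0.452-fold with YAP siRNA (0.339 to 0.604) and 0.531-fold with IRF3 siRNA (0.399 to 0.708), and neither interval reaches 1. With the trend removed it was 0.404-fold and 0.478-fold. The siRNA libraries differed from each other by 1.17-fold (0.862 to 1.6). The summed FPKM of STK3 and STK4 was 51.0% of control with YAP siRNA and 52.7% with IRF3 siRNA. No stretch of 50 bases is shared between annotated transcripts of LATS1 and LATS2, of STK3 and STK4, or of MOB1A and MOB1B, so a read of that length that matches without mismatch belongs to 1 gene of a pair.

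TAOK1 (ENSG00000160551, chromosome 17, 29390464 to 29551904), a kinase above STK3 and STK4, had 297 counts in the control library, 103 with IRF3 siRNA and 123 with YAP siRNA. It was the member furthest below control with IRF3 siRNA, at a ratio of 0.324 (0.256 to 0.406). With YAP siRNA the ratio was 0.402 (0.323 to 0.497). Its relatives were less far from control. The balance of TAOK1 against TAOK2 changed 0.435-fold with YAP siRNA (0.346 to 0.545) and 0.365-fold with IRF3 siRNA (0.286 to 0.463). Against TAOK3 it changed 0.705-fold (0.524 to 0.948) and 0.594-fold (0.436 to 0.808). Once the trend was removed, the changes were 0.678-fold and 0.622-fold against TAOK2, and 0.80-fold and 0.672-fold against TAOK3. TAOK1 has the greatest exon length of the 10 members, at 16980 bases, of which 173 overlap an antisense gene (RP11-802D6.1, 7 to 13 counts). Summed with it, the log2 ratio was -1.26 with YAP siRNA and -1.49 with IRF3 siRNA.

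Summed over the 5 kinases, FPKM went from 7.57 in the control library to 4.68 with YAP siRNA and 4.22 with IRF3 siRNA, which is 61.8% and 55.7% of control. The 5 adaptors summed to 24.2, 17.7 and 18.1 FPKM in the same order, or 73.1% and 74.6% of control. STRN, whose complex counteracts STK3 and STK4, is counted among these adaptors. MOB1A makes up the largest share of the adaptor sum.

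SAV1 (ENSG00000151748, chromosome 14, 50632058 to 50668331), the scaffold of STK3 and STK4, had 727 counts in the control library, 564 with IRF3 siRNA and 566 with YAP siRNA. The siRNA libraries were almost equal. Its ratio was 0.755 (0.675 to 0.844) with YAP siRNA and 0.724 (0.648 to 0.810) with IRF3 siRNA. SAV1 shares 840 bases of exon with ATL1 on the opposite strand (112, 131 and 133 counts), and whether the counting used strand is not stated. With the counts of both genes summed, the log2 ratio was -0.42 with YAP siRNA and -0.49 with IRF3 siRNA, against -0.41 and -0.47 alone.

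MOB1A and MOB1B are near-identical proteins that bind LATS and help it become active. MOB1A (ENSG00000114978, chromosome 2, 74152528 to 74178898) had 1317, 1110 and 1082 counts in the control, IRF3 siRNA and YAP siRNA libraries. This gene has the most counts of the 10, hence the narrowest intervals, with ratios of 0.797 (0.734 to 0.864) for YAP siRNA and 0.787 (0.726 to 0.853) for IRF3 siRNA. MOB1B (ENSG00000173542, chromosome 4, 70902326 to 71022449) had 154, 127 and 119 counts, with ratios of 0.749 (0.585 to 0.958) and 0.770 (0.604 to 0.980). The pair moved together. MOB1B stood at 0.094 of MOB1A in FPKM in the control library, 0.092 with IRF3 siRNA and 0.088 with YAP siRNA. The change of balance was 0.941-fold with YAP siRNA (0.724 to 1.22) and 0.978-fold with IRF3 siRNA (0.757 to 1.26), so changes within those limits cannot be seen at this depth. MOB1B shares 199 bases of exon with DCK on the same strand, and DCK had 400, 473 and 494 counts. Summed with DCK, the log2 ratio of MOB1B turned to 0.10 with YAP siRNA and 0.02 with IRF3 siRNA, so its direction rests on how overlapping reads were assigned.

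NF2 (ENSG00000186575, chromosome 22, 29603556 to 29698598), the tumour suppressor merlin, links membrane and actin and recruits LATS. It had 623 counts in the control library, 556 with IRF3 siRNA and 463 with YAP siRNA. The YAP siRNA library was the lowest. The ratio to control was 0.721 (0.638 to 0.814) with YAP siRNA and 0.833 (0.742 to 0.936) with IRF3 siRNA. Compared with its relatives of the ezrin family, NF2 lost ground to EZR (0.741-fold, 0.644 to 0.853, with YAP siRNA; 0.868-fold, 0.758 to 0.993, with IRF3 siRNA) and to MSN (0.807-fold and 0.877-fold). Against RDX, NF2 stood higher by 1.19-fold with YAP siRNA (1.005 to 1.40), and by 1.10-fold with IRF3 siRNA with an interval that spans 1. With the trend removed, NF2 was no longer higher against RDX, with changes of 0.991-fold and 0.877-fold. The changes were then 0.853-fold and 0.971-fold against EZR, and 0.852-fold and 0.901-fold against MSN.

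STRN (ENSG00000115808, chromosome 2, 36843640 to 36966472) is striatin, a scaffold of the STRIPAK phosphatase complex that counteracts STK3 and STK4. It had 266 counts in the control library, 128 with IRF3 siRNA and 81 with YAP siRNA. The 3 libraries were spread widely, and no interval of a pair of them reaches 1. Its YAP siRNA ratio of 0.295 (0.227 to 0.380) was the lowest of the 10 members. The IRF3 siRNA ratio was 0.449 (0.361 to 0.557). STRN also lost ground to its paralogs. Its balance against STRN3 changed 0.424-fold with YAP siRNA (0.299 to 0.599) and 0.659-fold with IRF3 siRNA (0.480 to 0.906), and against STRN4 0.310-fold and 0.440-fold. With the trend removed, the changes were 0.462-fold and 0.709-fold against STRN3, and 0.407-fold and 0.633-fold against STRN4. In FPKM, STRN exceeded STRN3 in the control library (1.14 to 1) and stood under it with IRF3 siRNA (0.749 to 1) and YAP siRNA (0.481 to 1).

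**Figure D3:**
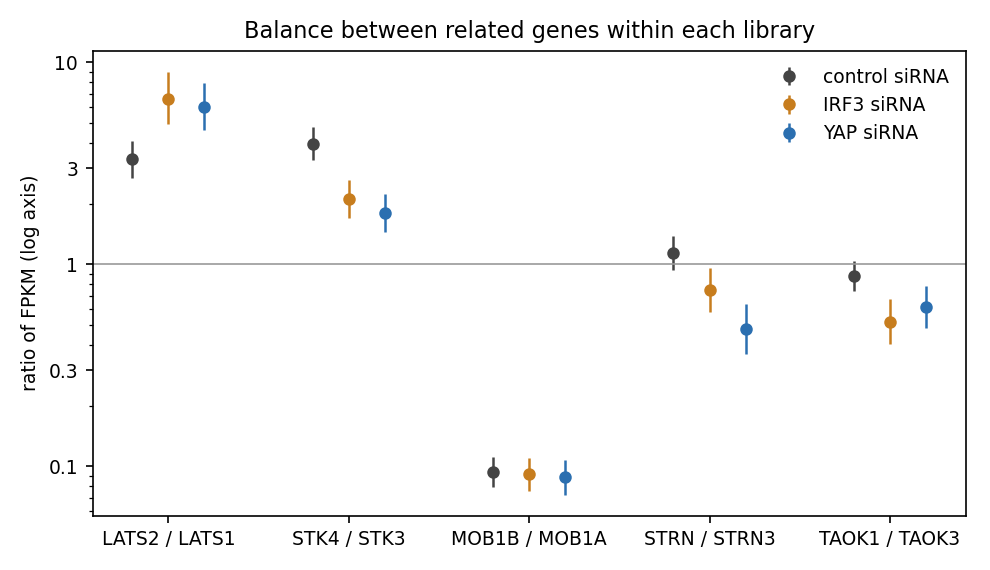
Ratio of FPKM (log axis) between related genes within the control, IRF3 siRNA and YAP siRNA libraries, with 95% intervals for counting error. The balance of LATS2 to LATS1 is higher in both siRNA libraries, that of STK4 to STK3, STRN to STRN3 and TAOK1 to TAOK3 is lower, and that of MOB1B to MOB1A is level between 0.088 and 0.094.

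In the direct comparison of IRF3 siRNA with YAP siRNA, no member reached 2-fold. Few of all genes with at least 50 counts did so either (0.884%), so nothing particular to these genes is read from that count. The ratios of IRF3 siRNA to YAP siRNA ran from 0.778 (LATS1) to 1.52 (STRN), with 6 of 10 below 1, against 52.5% of all genes with at least 50 counts. For 8 of 10 members the interval spans 1, against 31.4% of all genes whose interval excludes it in either direction. The other two members were STRN at 1.52 (1.14 to 2.04) and NF2 at 1.16 (1.02 to 1.31), both higher with IRF3 siRNA. This comparison does not use the control library. The STRN difference held against its paralogs, with a balance change of 1.56-fold against STRN3 (1.06 to 2.29) and 1.42-fold against STRN4 (1.06 to 1.91).

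Most of the members are long genes of low GC content, and in these libraries such genes were lower with either siRNA. Exon lengths of the members ran from 5578 (LATS2) to 16980 bases (TAOK1), and GC content of the longest transcript from 34.3% (MOB1B) to 56.0% (NF2). The longest 10% of genes with at least 50 counts had a median ratio of 0.725 with YAP siRNA and 0.698 with IRF3 siRNA, and the shortest 10% had 1.12 with either. The 10% of lowest GC content had 0.808 and 0.786. All members but LATS2 and NF2, 8 in all, have exons over 5000 bases and a GC content under 45%. Among the 2554 such genes with at least 50 counts, 14.1% were 2-fold lower with YAP siRNA and 15.8% with IRF3 siRNA, and the median ratio was 0.736 and 0.702. Among the 8 members of that class, 4 were 2-fold lower with either siRNA. The part of RNA quality or library preparation in this trend was not tested.

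An additive trend with GC content, exon length and level was then removed. On that scale 9 of 10 members were below control with YAP siRNA and 8 of 10 with IRF3 siRNA. The median log2 ratio of the genes in the fit with at least 1 FPKM was then 0.006 with either siRNA. A value below 0 alone therefore sets no member apart. STRN remained at least 2-fold lower with YAP siRNA (-1.31 on the log2 scale, against 1% of all genes), and no member was 2-fold lower with IRF3 siRNA (1.07% of all genes). STK4 had -0.81 with YAP siRNA and -0.63 with IRF3 siRNA, and LATS1 had -0.51 and -0.81. These values are smaller in size than before removal. TAOK1 had -0.58 and -0.84, and STRN had -0.65 with IRF3 siRNA. STK3, of 12597 bases, turned to 0.50 with YAP siRNA and 0.44 with IRF3 siRNA. The remaining genes lay closer to 0, with SAV1 at -0.16 in both, MOB1A at -0.11 and -0.09, MOB1B at -0.06 and 0.01, NF2 at -0.34 and -0.15, and LATS2 at -0.08 and -0.28. Within the 10 members, the ratio followed length weakly (Spearman -0.37 with YAP siRNA and -0.26 with IRF3 siRNA), and STK3, the second longest, lay nearest to control. These members share the libraries, so the coefficients are a description only.

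**Figure D4:**
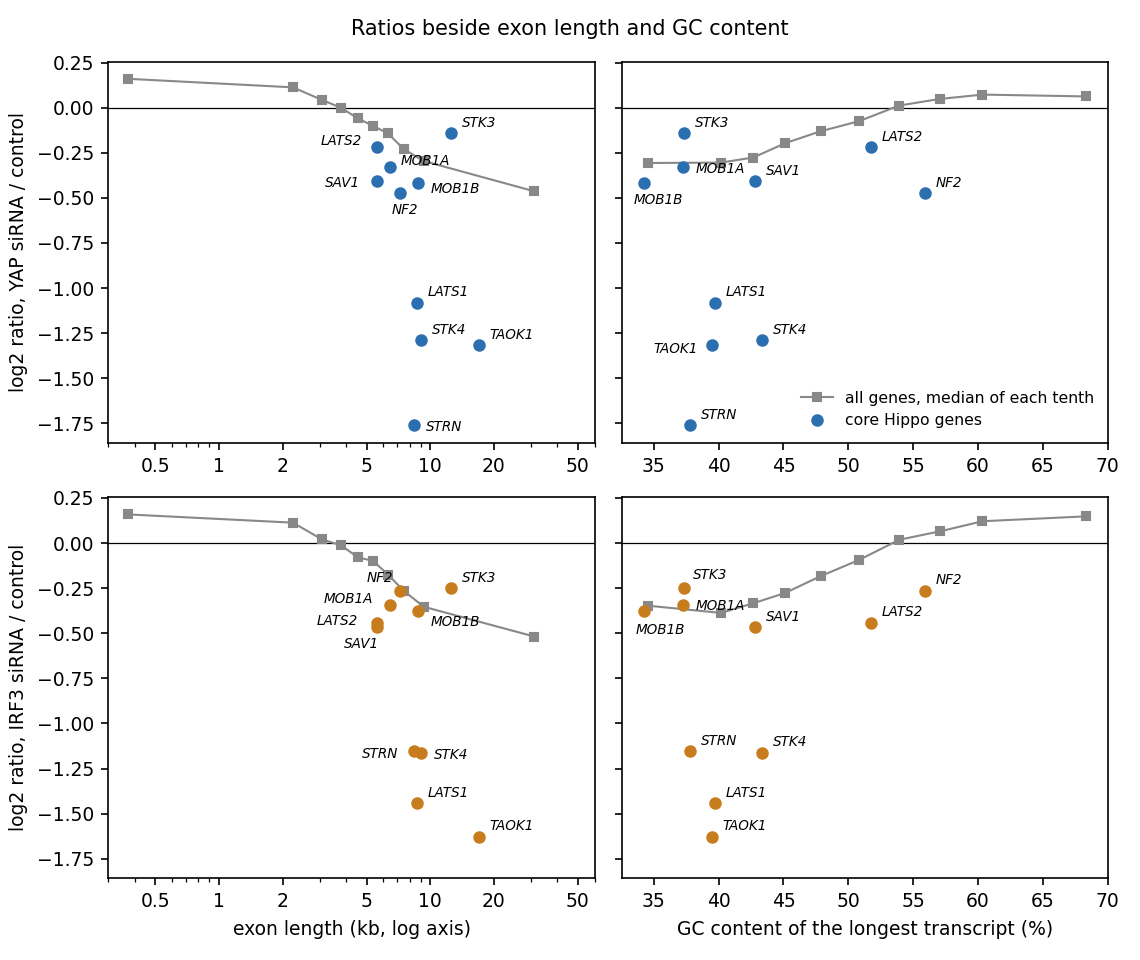
Log2 ratio to control with YAP siRNA (top) and IRF3 siRNA (bottom) against exon length in kb (log axis, left) and GC content of the longest transcript in percent (right). Squares are medians of all genes with at least 50 counts in 10 groups of equal size, and circles are the core Hippo genes; LATS1, STK4, TAOK1 and STRN lie under the median line in every panel, and STK3 lies above it.

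The remaining genes of the pathway were taken from 8 lists, with 70 genes found and 58 at a mean of at least 1 FPKM. Of these 58, 5 were 2-fold lower with YAP siRNA and 3 with IRF3 siRNA, none was 2-fold higher, and the median ratios were 0.845 and 0.837. Among all genes with at least 1 FPKM, 2.72% were 2-fold lower with YAP siRNA and 3.07% with IRF3 siRNA, and the median ratios were 0.982 and 0.976. CTTNBP2NL and WWC2, both 2-fold lower, and MAP4K5 and MOB3B were under 1 FPKM in both siRNA libraries. They passed that filter only through their control level, so nothing is read from the list counts at 1 FPKM. In the direct comparison none of the 58 reached 2-fold, against 1.74% of all such genes. At a mean of at least 50 counts, the filter that all core genes pass, 65 genes of the lists remained. Of these 65, 5 (YAP1, the siRNA target, among them) were 2-fold lower with YAP siRNA and 6 with IRF3 siRNA, none was 2-fold higher, and the median ratios were 0.840 and 0.786. Of all genes with at least 50 counts, 4.48% and 5.16% were 2-fold lower, and of the long genes of low GC content 14.1% and 15.8%. With the trend removed, only YAP1 with YAP siRNA (-1.11 on the log2 scale) and PTPN14 with IRF3 siRNA (-1.07) stayed 2-fold lower among these calls. The list counts and medians that follow are at 1 FPKM, and genes added at 50 counts are named where they were 2-fold lower, chosen after their values were seen.

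Among kinases and MOB proteins close to the core, none was 2-fold different at a mean of 1 FPKM. The NDR kinases, which are the nearest relatives of LATS, and further MOB proteins had 6 of 6 genes expressed and median ratios of 0.864 with YAP siRNA and 0.859 with IRF3 siRNA. STK38 had 0.752 and 0.646, and MOB3B had 0.587 and 0.565. MOB2, which binds NDR kinases, had 1.08 and 1.42. The balance of LATS1 against STK38 changed 0.629-fold with YAP siRNA (0.458 to 0.859) and 0.569-fold with IRF3 siRNA (0.405 to 0.793), and against STK38L 0.519-fold and 0.468-fold. With the trend removed, the changes were 0.875-fold and 0.797-fold against STK38, and 0.643-fold and 0.595-fold against STK38L. Of the further kinases that can activate LATS, 6 of 9 were kept, with medians of 0.860 and 0.829. The closest to 2-fold was MAP4K5 at 0.540 and 0.501, while MAP4K3 had 0.720 and 0.669 and MAP4K4 had 0.840 and 0.775. At 50 counts 8 were kept, with medians of 0.777 and 0.720, and 1 of them, TNIK, was 2-fold lower with IRF3 siRNA. TNIK had 203 counts in the control library, 105 with IRF3 siRNA and 141 with YAP siRNA. Its ratios were 0.674 for YAP siRNA and 0.483 (0.378 to 0.614) for IRF3 siRNA. With the trend removed, its log2 ratios were -0.11 for YAP siRNA and -0.53 for IRF3 siRNA.

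In the STRIPAK complex, of which STRN is a scaffold, 16 of 18 further genes were kept, with medians of 0.960 with YAP siRNA and 0.903 with IRF3 siRNA. At this filter only CTTNBP2NL, a striatin-binding protein, was 2-fold lower, at 0.445 and 0.435. It passes the filter only through its control level of 2.15 FPKM, against 0.935 with IRF3 siRNA and 0.955 with YAP siRNA. Its counts were 253 in the control library, 118 with IRF3 siRNA and 116 with YAP siRNA. At 50 counts SLMAP, another subunit of the complex, was 2-fold lower with IRF3 siRNA as well. It had 211, 107 and 127 counts in the control, IRF3 siRNA and YAP siRNA libraries, a ratio of 0.473 (0.372 to 0.60) with IRF3 siRNA and 0.584 with YAP siRNA. With the trend removed, the log2 ratios of SLMAP were -0.29 with IRF3 siRNA and -0.04 with YAP siRNA. STRN3 had 0.697 and 0.681, and the phosphatase scaffold PPP2R1B had 0.675 and 0.616. STRN was therefore lower than the median of its complex in both comparisons, and whether that difference exceeds the spread between cultures cannot be tested with 1 library per group.

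The relatives and partners of NF2 had the lowest medians of the 8 lists, at 0.607 with YAP siRNA and 0.614 with IRF3 siRNA over 9 of 10 genes. WWC2, of the KIBRA family that acts with NF2 on LATS, was 2-fold lower with either siRNA, at 0.396 and 0.376. It passes the 1 FPKM filter only through its control level of 2.42 FPKM, against 0.959 with YAP siRNA and 0.911 with IRF3 siRNA. With the trend removed, its log2 ratios were -0.83 with YAP siRNA and -0.85 with IRF3 siRNA. WWC3 was 2-fold lower with YAP siRNA (0.465) and had 0.590 with IRF3 siRNA. AMOT, which binds YAP and LATS, had 0.515 and 0.556. NF2 itself, at 0.721 and 0.833, stood nearer to control than these.

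The RASSF family, whose members dimerise with STK3, STK4 and SAV1, had 4 of 6 genes kept and medians of 0.841 and 0.792. RASSF2 had 0.67 and 0.60, RASSF3 0.748 and 0.809, and RASSF4 0.946 and 0.775. LIM proteins and ubiquitin ligases acting on LATS had 6 of 8 kept, none 2-fold lower, and medians of 0.705 and 0.697. The ligase ITCH had 0.670 and 0.650, WWP1 had 0.558 and 0.552, and DCAF1 (listed as VPRBP) had 0.571 and 0.599.

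Below LATS, the effectors had 8 of 9 genes kept and medians of 0.876 with YAP siRNA and 0.841 with IRF3 siRNA. At this filter YAP1 was the only one 2-fold lower, in its own knockdown. At 50 counts all 9 were kept, and TEAD1, a DNA-binding partner of YAP, was 2-fold lower with IRF3 siRNA. TEAD1 had 251 counts in the control library, 102 with IRF3 siRNA and 162 with YAP siRNA. Its ratio was 0.379 (0.298 to 0.479) with IRF3 siRNA and 0.626 (0.510 to 0.766) with YAP siRNA. With the trend removed, its log2 ratios were -0.72 with IRF3 siRNA and -0.06 with YAP siRNA. The ligase subunits that mark phosphorylated YAP for destruction were mixed, with BTRC at 0.767 and 0.661 and FBXW11 at 0.687 and 0.897. Of 5 genes that YAP activates in many cells, 3 were kept. PTPN14 had 0.377 and 0.313, 2-fold lower with either siRNA, while the classical readouts CYR61 at 0.944 and 1.09 and CTGF at 0.772 and 0.934 had intervals that span 1. Over the 3 libraries, the genes of these lists with ratios most like those of TAOK1 were PTPN14 (a distance of 0.104 on the log2 scale) and WWC2 (0.217). For STRN they were WWC2 (0.494) and YAP1 (0.568). Each distance rests on ratios to the same control library, with no trend removed, and shared regulation of these genes was not tested.

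**Figure D5:**
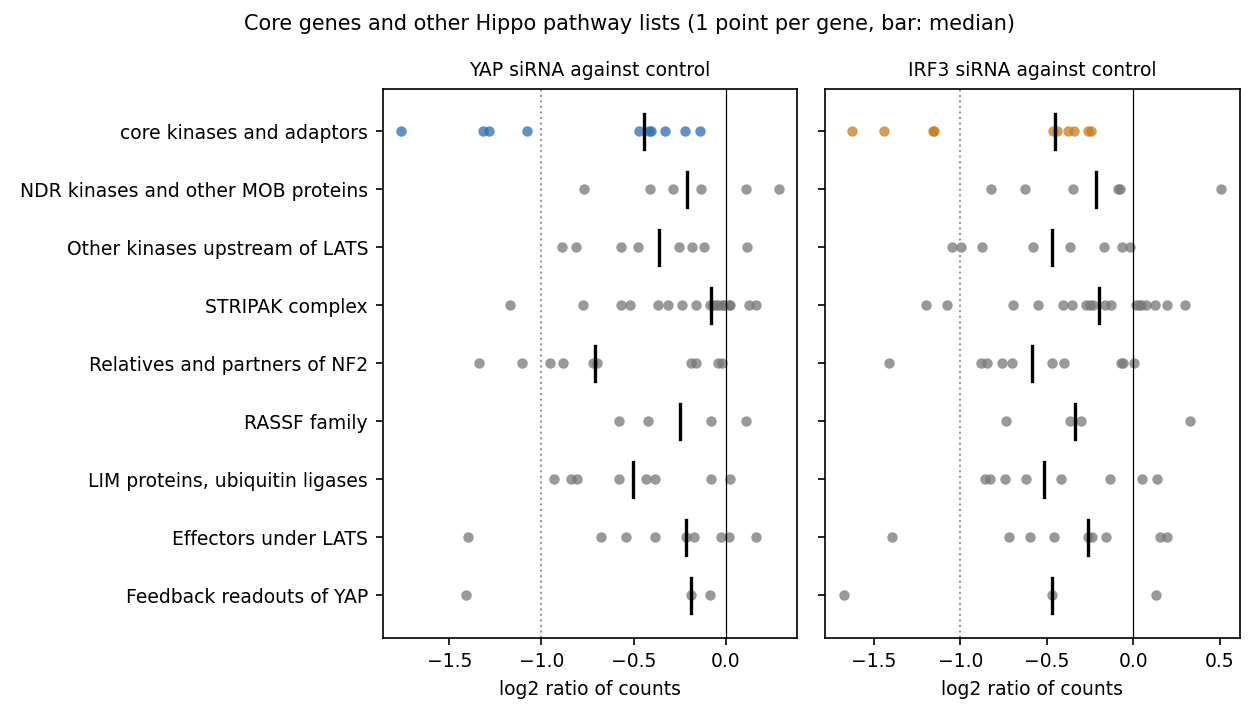
Log2 ratio of counts to control with YAP siRNA (left) and IRF3 siRNA (right) for the core Hippo genes (top) and for 8 other lists of the pathway, all with a mean of at least 50 counts, 1 point per gene (AMOTL2 stands in 2 lists) and a bar at the median. The dotted line marks 2-fold lower. In each panel 4 of the 10 core genes lie beyond it, against 5 of the 65 others on the left and 6 on the right. Of all genes with at least 50 counts, 4.48% were 2-fold lower with YAP siRNA and 5.16% with IRF3 siRNA.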

How the data were processed

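The deposited table gives 1 column of raw counts and 1 of FPKM per library, per the file headers. The submitters' processing notes name TopHat2 2.0.9 and build hg38; the gene counter, annotation release and strand setting are not stated in the sources used here. The deposited FPKM, computed by the authors, was used for levels and for comparing genes. Differences between libraries are ratios of the deposited counts scaled to column totals, with a count of 0 set to a floor of 3 counts. They carry exact (Clopper-Pearson) 95% binomial intervals, and balances of paralogs carry exact conditional intervals of the odds ratio. These cover counting error only. With 1 library per group no test was made, and a 2-fold ratio was the size rule. Genes with a mean of at least 1 FPKM (11103) were kept. A filter of a mean of at least 50 counts (12098 genes), which all 10 members pass, was chosen after seeing the data, as were its use for the lists, the paralog balances with the trend removed, exon lengths from GENCODE for levels and the class of long genes of low GC content.

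Alternatives were TMM factors (edgeR 4.0.16), median-of-ratios size factors (DESeq2 1.42.0), centring on the median gene, FPKM plus 1 or 0.1, other filters and folds, and counts summed over genes with overlapping exons. A further one removed an additive trend, with splines of 4 degrees of freedom for GC content, union exon length (both from GENCODE 29) and level, fitted on 12077 genes in the YAP siRNA comparison. By ID, 50111 genes matched GENCODE 29. The coordinates of STK3 differ there from the deposited ones. The calculations were tested on simulated data and used R 4.3.3 and Python 3.11.15 with scipy 1.17.1, numpy 2.4.6, patsy 1.0.2, pandas 2.3.3 and matplotlib 3.10.9.

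The members and the lists were chosen with earlier results of these data known. Named are all members, IRF3 and YAP1, the paralogs compared, and from each list up to 3 kept genes with the largest mean log2 ratio to control in absolute size. For the 2 members furthest from control, the 2 list genes with the nearest pair of log2 ratios are named too. DCK and ATL1 are named for their overlap. 1 further promoter sequence is not reported here.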

Additional observations from a re-analysis of the deposited data

How the results depend on the processing

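Among the 6 members with a mean of at least 1 FPKM, 2 (STK4 and STRN) were 2-fold lower with either siRNA, and TMM, DESeq2 size factors, median centring, FPKM plus 0.1, summed overlapping genes and a 1.5-fold rule gave 2 as well; nothing is read from that count or from its stability, since STRN passes the filter only through the control library and STK4 averages 0.99 FPKM in the siRNA libraries. With YAP siRNA the count was 0 with FPKM plus 1, 1 with the trend removed, 1 at 3-fold and 0 of 2 members at a mean of 5 FPKM. With IRF3 siRNA it was 0 under each of those 4. Without a filter, or at a mean of 50 counts, it was 4 of 10 with either siRNA. Over all 10, LATS1 fell short of 2-fold with YAP siRNA under TMM, DESeq2 size factors and FPKM plus 0.1, which leaves 3. The direct comparison had 0, and 1 at 1.5-fold. The members' median log2 ratio went from -0.44 to -0.25 with YAP siRNA and from -0.45 to -0.22 with IRF3 siRNA when the trend was removed; every other alternative gave -0.34 to -0.45 and -0.34 to -0.47. FPKM plus 1, which shrinks low genes by construction, gave a balance change of LATS2 to LATS1 of 1.18 with YAP siRNA and 1.13 with IRF3 siRNA, and of STK4 to STK3 of 0.609 with YAP siRNA. With the trend removed, the changes of these balances stayed within their counting intervals. Those of TAOK1 to TAOK2, STRN to STRN4, LATS1 to STK38 and NF2 to RDX did not (either siRNA), nor did that of NF2 to EZR with YAP siRNA. For ratios of single members, 184 values stayed within the counting interval and 26 did not. Against control, those that changed sign were STK3 with the trend removed and MOB1B summed with DCK (either siRNA), and MOB1B with the trend removed (IRF3 siRNA). In the direct comparison, SAV1, MOB1A and MOB1B, whose intervals span 1, changed sign under some alternatives, and the members' median of 0.05 was -0.04 over all 10.

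Over all kept genes, 3.77% were 2-fold different with YAP siRNA and 4.07% with IRF3 siRNA. FPKM plus 1 gave 0.82% and 1.0%, the trend removed 1.18% and 1.24%, a filter of 5 FPKM 1.12% and 1.32%, no filter 15% and 15.9%, and 3-fold 0.676% and 0.784%. Of those calls, 72.2% were lower with YAP siRNA and 75.4% with IRF3 siRNA; this was 59.8% and 61.0% with TMM and 60.7% and 59.8% with DESeq2 size factors. The median log2 ratio of all kept genes moved from -0.03 to 0.08 with IRF3 siRNA under DESeq2 size factors and to 0.07 under TMM. Relative to the median gene, the same 4 of 10 members stayed 2-fold lower. No paired analysis was possible because each group has 1 library and the labels give no replicate numbers, so no library could be left out either. Depth limits most the genes with few counts in either library of a comparison. LATS1, STK3 and MOB1B had 160 or fewer counts in the control library. STRN had 81 counts with YAP siRNA, and TAOK1 had 103 with IRF3 siRNA.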
